A study of Mus musculus with 6 samples.

Results

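The 42 cell cycle genes described here were taken by symbol from a written list, out of 31053 genes in the deposited matrices, and all 42 were found. They comprise 15 genes of DNA replication and S phase, 25 genes of the later cycle and mitosis, and 2 inhibitors of cyclin-dependent kinases. They were measured by single-nucleus RNA sequencing (10x Chromium) of kidney cortex from FVB/N mice. Both groups carried Klf4 fl/fl, in which Klf4 is flanked by recombinase sites. The 3 control libraries had no Cre, and the 3 knockout libraries also carried Podocin-Cre, which is active in podocytes, the cells that wrap the glomerular capillaries. By its labels, the study thus targeted a gene in podocytes and measured the whole cortex. Neither the ages of the mice nor the removed part of Klf4 is given in the labels. Each library title carries a different code, but the labels do not say whether the codes stand for separate animals. The p-values thus measure the spread between these libraries.

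A dividing cell first copies its DNA in S phase and then separates the copies in mitosis. The MCM proteins open the DNA, Pcna clamps the polymerase to it, and Rrm1 and Rrm2 make the deoxynucleotides. Later, Top2a untangles the copies, Cdk1 with the B cyclins starts mitosis, kinesins and Prc1 build the spindle, and Anln and Ect2 act in the final cleavage. Cdkn1a (p21) and Cdkn1b (p27) hold the cycle back. Tubule cells of the adult kidney divide rarely but can re-enter the cycle after injury, whereas mature podocytes are regarded as unable to complete division.

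The libraries held 3741 to 18210 nuclei after filtering, 25163 in controls and 28979 in knockouts, with medians of 1093 to 2018 UMIs (unique molecular identifiers, counted RNA molecules) per nucleus. Control 1 and knockout 1 stood apart: they had 21957 and 22080 barcodes against 3919 to 6079 in the other libraries, and median mitochondrial shares of 2.67% and 1.02% against 0.087% to 0.163%. Pairs of libraries shared 5 to 132 cell barcodes. Klf4 itself gave 1, 0 and 0 UMIs in control podocyte nuclei and 5, 0 and 1 in nuclei of that class in the libraries labelled knockout. The UMIs were thus no fewer where the deletion is labelled, and they are too few to check the labels. The podocyte marker Nphs1 was present in that class in all 6 libraries, at 1044 CPM or more (counts per 1000000 UMIs of the nuclei summed, the unit of all levels here). Proximal tubule markers were found in every other named class as well, at 4895 to 14100 CPM in nuclei without mitotic UMIs against 15600 to 17420 in the proximal tubule class itself, so RNA from that segment was present in nuclei of all classes.

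The promoters show how the phases differ in sequence. RefSeq windows (GRCm38.p6, from 250 bases before to 50 after a start) were matched for 37 of the 42 members, with 41 starts; Mcm4, Atad2, Aurkb, Ccna2 and Tpx2 had none. The windows were searched on both strands for E2F letters (TTTCCCGC, TTTGGCGC, TTTCGCGC, TTCCCGCC or TTGGCGCC), named for the factors of S phase genes. They were also searched for CHR letters (TTTGAA or TTTAAA), an element of mitotic promoters, and for CCAAT, the letters bound by NF-Y. Some E2F forms overlap each other. In the sequences below, the 100 bases before the start are written 5′ to 3′ on the gene's strand, and capitals mark these letters. The first 4 are mitotic genes and the last 3 are S phase genes, chosen to show the letters in windows that overlap no annotated exon.
Top2a, chr11:99024190-99024289, minus strand: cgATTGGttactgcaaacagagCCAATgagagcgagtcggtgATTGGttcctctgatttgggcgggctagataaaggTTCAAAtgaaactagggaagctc
Kif11, chr19:37376282-37376381, plus strand: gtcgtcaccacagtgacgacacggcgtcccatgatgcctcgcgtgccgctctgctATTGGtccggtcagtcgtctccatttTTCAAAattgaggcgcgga
Mki67, chr7:135716380-135716479, minus strand: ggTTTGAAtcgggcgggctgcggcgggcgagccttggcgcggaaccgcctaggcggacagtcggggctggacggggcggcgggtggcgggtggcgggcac
Cenpf, chr1:189688087-189688186, minus strand: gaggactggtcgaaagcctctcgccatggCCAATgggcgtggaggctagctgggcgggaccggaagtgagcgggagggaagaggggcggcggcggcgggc
Mcm6, chr1:128359706-128359805, minus strand: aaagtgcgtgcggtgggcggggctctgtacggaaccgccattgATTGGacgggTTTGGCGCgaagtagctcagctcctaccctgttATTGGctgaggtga
Rrm1, chr7:102441595-102441694, plus strand: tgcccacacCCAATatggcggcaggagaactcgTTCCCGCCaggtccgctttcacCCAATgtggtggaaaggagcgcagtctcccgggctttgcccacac
Mcm3, chr1:20820313-20820412, minus strand: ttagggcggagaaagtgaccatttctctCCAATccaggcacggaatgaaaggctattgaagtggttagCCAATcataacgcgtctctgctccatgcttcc

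Over whole windows, the letters divided the members by phase. CHR letters were in 21 of 24 mitotic starts (87.5%) and in 3 of 14 S phase starts (21.4%), against 27.6% of all 32851 promoters. E2F letters went the other way, with 8 of 14 S phase starts (57.1%), 4 of 24 mitotic starts (16.7%) and 4.04% of all promoters. CCAAT was common to both, in 12 of 14 and 19 of 24 starts against 37.4% of all promoters. Top2a and Kif11 thus carry CHR letters and CCAAT close to the start, and Mcm6 and Rrm1 carry E2F letters and CCAAT. Ect2 and Prc1 were counted more than once, in overlapping windows that hold the same CHR and CCAAT letters. These are matches of letters, and no binding was measured.

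**Figure D1:**
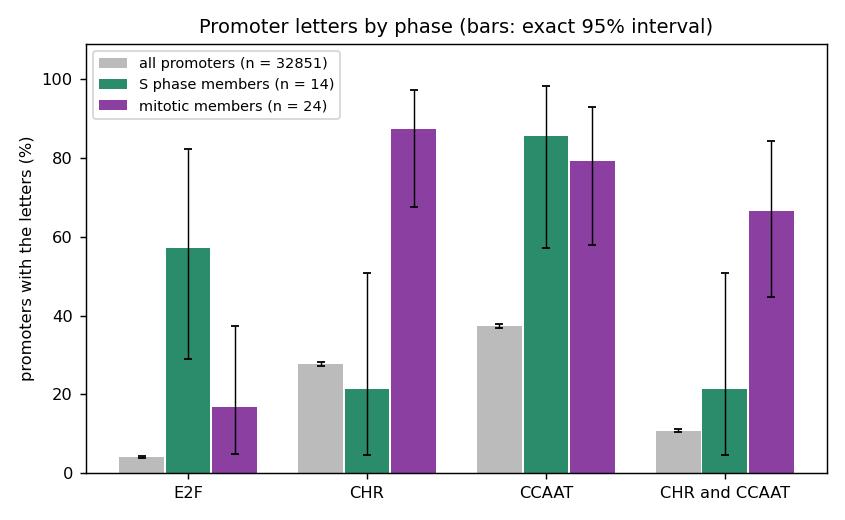
Share of promoter starts (y axis, %) whose 300-base window holds E2F, CHR or CCAAT letters, or both CHR and CCAAT, for all promoters, S phase members and mitotic members; bars show exact 95% binomial intervals. CHR letters mark 87.5% of mitotic starts and 21.4% of S phase starts, and E2F letters 16.7% and 57.1%. The intervals take starts as independent, though Ect2 and Prc1 are counted more than once in overlapping windows.

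Over all nuclei, every mitotic gene was higher in the knockout libraries, and by more than most S phase genes. The 25 mitotic members had log2 changes of 1.10 to 3.41, with a median of 2.45, against a median of -0.03 over all genes tested. In 24 of the 25, each knockout library lay above each control library, which held for 10.7% of the 16163 genes tested. The exception was Ccna2, the cyclin of S and G2 phase. With 3 libraries a group, Cenpf, a kinetochore protein, was the single mitotic member that passed edgeR's quasi-likelihood test after Benjamini-Hochberg adjustment, at which 0.13% of all genes were called higher. All 25 had an unadjusted p under 0.05, as did 9.84% of all genes in either direction. With the replicate number as a block, 20 of 25 rose, where 1.14% of all genes were called higher, and 24 of 25 passed with DESeq2, where 2.03% were. The count rested on single libraries: it was 6 without knockout 1, where 0.174% of all genes were called higher, and 0 without any other single library. Without both libraries numbered 1 it was 24, where 1.84% of all genes were.

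Among the mitotic genes, Top2a, the topoisomerase that untangles DNA, was at 0.992, 4.25 and 3.13 CPM in controls 1, 2 and 3 and at 16.1, 35.0 and 34.3 in knockouts 1, 2 and 3. Its log2 change was 3.41 ± 0.56 (SE) (adjusted p = 0.0787 in edgeR, 0.0074 with the block). Mki67, the antigen of dividing cells, was at 1.73, 2.32 and 3.13 CPM in controls and 10.5, 23.2 and 24.8 in knockouts. Neither gene overlapped between groups, and in both knockout 1 was the lowest knockout library. For Mki67 the log2 change was 2.98 ± 0.40 (adjusted p = 0.0603 in edgeR, 0.0105 with the block).

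Cenpf (ENSMUSG00000026605) lies at chr1:189640606-189688086 on the minus strand in GENCODE M21 (GRCm38). It was at 1.71, 2.71 and 2.00 CPM in controls and at 10.2, 22.5 and 24.5 in knockouts, and it rose by a log2 change of 3.12 ± 0.39 (adjusted p = 0.0476 in edgeR, 0.0115 with the block). Prc1, which bundles the spindle's midzone, was at 1.20, 1.29 and 3.39 in controls and at 11.0, 20.5 and 20.8 in knockouts. Ect2, which triggers cleavage, was at 4.62, 4.51 and 5.38 in controls and at 14.3, 27.0 and 34.7 in knockouts. All 3 genes kept the same order, with knockout 1 lowest among the knockouts.

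Aurkb, the kinase that corrects spindle attachment, was at 0.190, 0.258 and 0.174 CPM in controls and at 2.21, 2.64 and 1.81 in knockouts, from 13 control and 122 knockout UMIs. Ccnb1, the cyclin that starts mitosis with Cdk1, was at 0.464, 0.773 and 0.434 in controls and at 1.87, 2.52 and 3.79 in knockouts. Unlike Top2a, Aurkb was no lower in knockout 1 than in knockout 3. The largest change depended on the measure: in edgeR it was that of Top2a, with Aurkb at 3.35, and in DESeq2 that of Aurkb, at 3.40 against 3.38 for Top2a. The smallest mitotic change was that of Ezh2, a chromatin methyltransferase that also has roles outside mitosis, with a log2 change of 1.10 ± 0.22. Ezh2 and Kif20b were also the most abundant mitotic members in controls, at 30.5 ± 4.22 and 22.4 ± 3.37 CPM (SD, n = 3).

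S phase genes were divided. Of 14 members tested (Cdt1, a licensing factor, gave no UMI in any library), 13 had positive log2 changes, from 0.16 to 2.07, and Helb, a helicase, was at -0.04. Their median was 0.92. In 11 of the 14 each knockout library lay above each control library, against 10.7% of all genes. None passed edgeR's test, and 8 had an unadjusted p under 0.05, against 9.84% of all genes. With the block 3 rose (Mcm6, Atad2 and Hells), where 1.14% of all genes were called higher, and 4 passed with DESeq2, where 2.03% were. Without both libraries numbered 1, 6 passed, where 1.84% were called higher.

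The S phase genes with the smallest p were those of replication and chromatin. Mcm6, a helicase subunit, was at 1.08, 2.06 and 1.91 CPM in controls and 4.10, 10.7 and 6.63 in knockouts, with a log2 change of 2.07 ± 0.45 (adjusted p = 0.155 in edgeR, 0.0320 with the block). Atad2, a chromatin factor, was at 6.73, 12.4 and 13.6 in controls and 21.0, 58.9 and 43.4 in knockouts. Hells, a chromatin remodeller, was at 4.77, 9.40 and 6.95 in controls and 11.7, 32.9 and 24.4 in knockouts. In all 3, the groups did not overlap and knockout 2 was the highest library, while knockout 3 was the highest for Mki67, Cenpf and Ect2.

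Mcm3, another helicase subunit, was at 0.507, 0.902 and 0.521 CPM in controls and 1.53, 3.21 and 2.67 in knockouts. Pola1, a subunit of the priming polymerase, was at 28.1, 37.6 and 36.7 in controls and 50.8, 104.6 and 70.0 in knockouts. The adjusted p of Pola1 with the block was 0.05005, which just missed the threshold. Per length, Pola1 was not the most abundant S phase gene: per 100 kb of gene, controls held 10.4 CPM of Pola1 and 98.0 of Helb.

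Pcna, Rrm2 and Mcm2, familiar S phase markers, had the smallest differences beside Helb, Mcm4 and Mcm7. Pcna was at 3.91, 3.35 and 2.34 CPM in controls and 3.39, 4.13 and 3.87 in knockouts, so the groups overlapped, with a log2 change of 0.16 ± 0.32. Rrm2 was at 5.21, 4.51 and 5.73 in controls and 6.08, 6.19 and 6.37 in knockouts, with a log2 change of 0.20 ± 0.23. Mcm2 was at 1.69, 1.16 and 1.65 in controls and 1.95, 3.096 and 2.67 in knockouts, with a log2 change of 0.67 ± 0.38. None of the 3 passed in edgeR, with the block or in DESeq2. A p that misses the threshold does not show that these genes were alike in both groups.

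**Figure D2:**
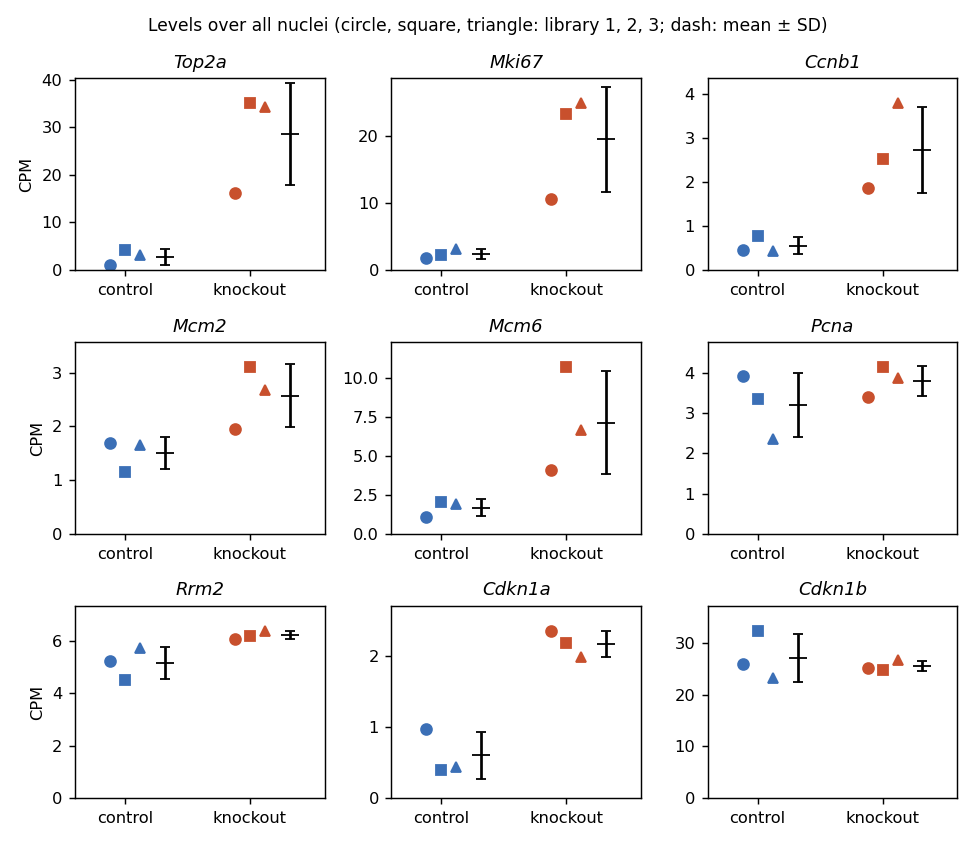
Levels over all nuclei (y axes from 0, CPM) of 9 members in the 3 control and 3 knockout libraries, with mean ± SD. Top2a, Mki67 and Ccnb1 lie apart between groups, Pcna overlaps, and Cdkn1b overlaps.

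The inhibitors went different ways. Cdkn1a was at 0.971, 0.387 and 0.434 CPM in controls and at 2.35, 2.18 and 1.98 in knockouts. The groups did not overlap, and the log2 change of 1.66 ± 0.51 did not pass (adjusted p = 0.292 in edgeR, 0.117 with the block). Cdkn1b was at 26.1, 32.3 and 23.2 in controls and at 25.3, 24.9 and 26.7 in knockouts, with a log2 change of -0.14 ± 0.16. Cdkn1a rested on 54 control and 125 knockout UMIs. It passed without both libraries numbered 1.

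**Figure D3:**
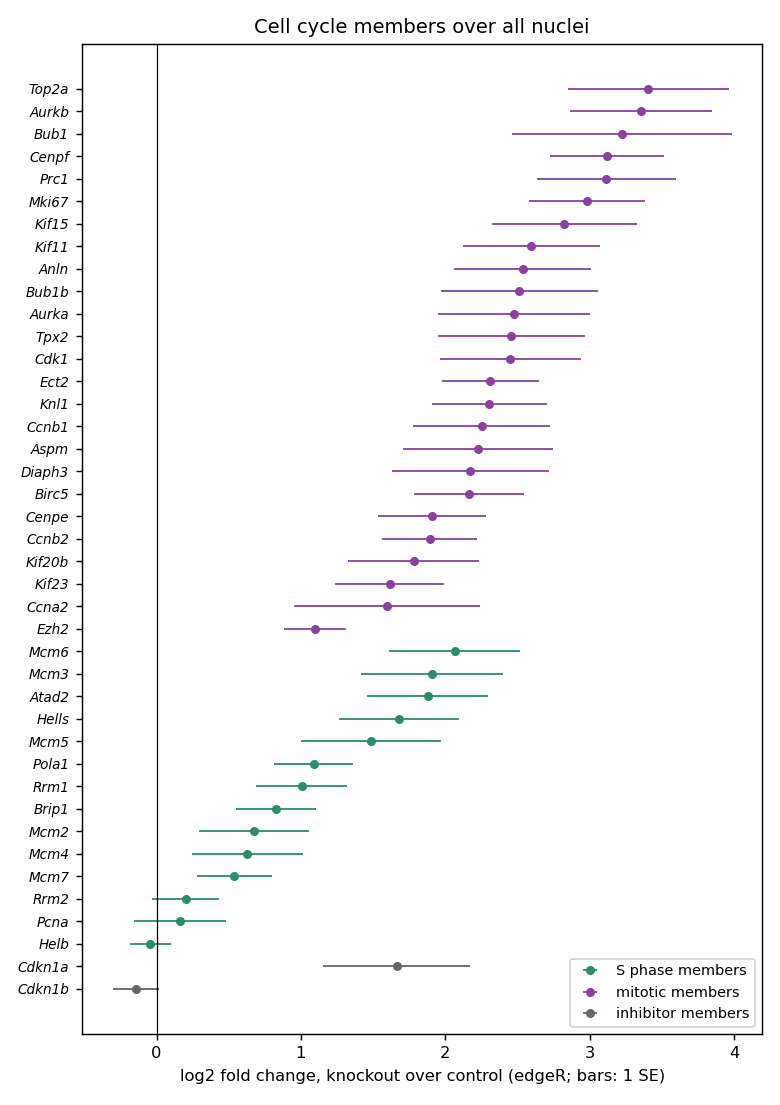
Log2 fold change of each tested member over all nuclei (x axis, knockout over control, edgeR; bars are 1 SE), with members ordered by change within the mitotic, S phase and inhibitor lists. The mitotic genes run from 1.10 to 3.41 and the S phase genes from -0.04 to 2.07.

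Summed over the lists, the difference between phases was visible in every library. The 25 mitotic members together were at 86.5, 116 and 124 CPM in controls and 258, 553 and 579 in knockouts, 4.25 times as high on average. The 15 S phase members were at 99.4, 129 and 128 in controls and 164, 310 and 238 in knockouts, 2.00 times as high. The mitotic sum was thus 0.913 ± 0.049 times the S phase sum in controls and 1.93 ± 0.45 times in knockouts (SD, n = 3 each), and the groups did not overlap. Pola1, Brip1 and Helb made up much of the S phase sum. Without them it was 2.53 times as high in the knockouts. Ezh2 and Kif20b, at 30.5 and 22.4 CPM in controls, likewise made up much of the control mitotic sum. That sum was not computed without them, so its ratio to the S phase sum depends on both genes. In bulk sums, more cycling nuclei and more RNA per cycling nucleus cannot be told apart.

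Counting nuclei gave the same direction. A nucleus was counted as having mitotic UMIs when it held at least 3 UMIs from at least 2 of 23 core mitotic genes (the list without Ezh2 and Diaph3). This held for 87 of 16383, 27 of 3741 and 38 of 5039 control nuclei, and for 479 of 18210, 312 of 4896 and 435 of 5873 knockout nuclei. The shares were 0.531%, 0.722% and 0.754% in controls and 2.63%, 6.37% and 7.41% in knockouts. With each nucleus thinned to 1000 UMIs, they were 0.0777%, 0.249% and 0.386% against 1.46%, 4.48% and 5.38%. The thinned values leave out shallower nuclei, keeping 21338 in controls and 22762 in knockouts. The genes behind the count differed in part, though all belong to the rule and so are a description. Top2a was detected in 50.9% of the counted knockout nuclei and 26.3% of the counted control nuclei, against 0.778% of the other knockout nuclei. Kif20b was detected in 51.6% and 64.5%, against 6.52% of the other knockout nuclei.

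Assigned by their nearest neighbours, most of these nuclei in the knockouts fell in the proximal tubule. Nuclei were named from marker genes without cell cycle genes, and those with more than 1 core mitotic UMI took the class of their nearest neighbours. With all nuclei clustered together instead, 357 nuclei formed an unnamed cluster with Top2a and Prc1 among its top genes. It held 5, 1 and 4 control and 138, 94 and 115 knockout nuclei. With cell cycle genes in that clustering, such a cluster held 772 nuclei. Class names of nuclei with mitotic UMIs thus depended on how they were assigned. In knockouts, 632 of 1226 nuclei with mitotic UMIs (51.6%) were proximal tubule, a class that made up 48.9% of knockout nuclei. In controls, 49 (32.2%) were. Clusters left unnamed held 141 of the knockout nuclei with mitotic UMIs and 43 of those in controls (28.3%). These unnamed nuclei with mitotic UMIs were deep, with medians of 9766 and 23340 UMIs. Clusters called mixed, whose markers did not point to a single class, held a further 53 in knockouts and 11 in controls (7.24%). Their medians were 3127 and 15219 UMIs. Within the proximal tubule class, mitotic UMIs were found in 0.271%, 0.311% and 0.447% of control nuclei (31, 5 and 13 nuclei). In knockouts they were found in 2.33%, 7.51% and 10.2% of its nuclei (222, 178 and 232 nuclei). The knockout mean was 19.5 times the control mean. Thinned to 1000 UMIs, control shares were at most 0.118% and knockout shares at least 1.58%.

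Class membership rests on markers that ambient RNA also carries. In knockout proximal tubule nuclei with mitotic UMIs, Lrp2, an endocytic receptor of that segment, was at 2336 CPM, against 1948 in the other knockout proximal tubule nuclei and 1075 in knockout thick ascending limb nuclei without mitotic UMIs. Slc34a1, a phosphate transporter of mature proximal tubule, was at 3074 against 4547 and 2188. The marker list of the segment summed to 12240 against 15600 and 7738. Higher Lrp2 was not particular to this class. In knockout type A intercalated nuclei it was at 2503 CPM with mitotic UMIs and 963.8 without. In principal cells it was at 2095 against 1442, and in the thick ascending limb at 1617 against 1075. Parietal epithelial nuclei went the other way, at 550.2 against 708.3. The part of ambient RNA in the class was not tested. Some proximal tubule clusters came almost wholly from knockout 3: 911 of 939 nuclei in the largest of them.

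In proximal tubule sums, the pattern matched that over all nuclei. All 23 mitotic members tested had log2 changes of 1.24 to 4.25, and in all 23 the knockout libraries lay above the controls, which held for 8.31% of 13340 genes. None passed edgeR's test, at which 0.0075% of genes were called higher, though 22 had an unadjusted p under 0.05, against 8.16% of genes. With the block 15 of 23 rose, where 0.705% of genes were called higher, and 20 passed with DESeq2, where 1.21% were. Without knockout 1, 11 passed, where 0.28% of genes were called higher. Of 12 S phase members tested, 0 passed in edgeR, 6 had an unadjusted p under 0.05, 2 rose with the block and 4 passed with DESeq2, against the same shares of genes.

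The 5 proximal tubule members with the smallest p were Mki67, Cenpf, Ect2, Top2a and Prc1. Top2a was at 0.724, 3.98 and 1.99 CPM in controls and 16.2, 43.5 and 41.8 in knockouts, with a log2 change of 4.25 ± 0.66 (adjusted p = 0.107 in edgeR, 0.0036 with the block). Mki67 was at 1.41, 2.39 and 0.709 in controls and 10.9, 27.4 and 27.7 in knockouts, with a log2 change of 3.95 ± 0.53. For Cenpf, Ect2 and Prc1 the log2 changes were 3.79, 2.51 and 3.56. None of the 5 overlapped between groups. The summed S phase level was 2.35 times as high in knockouts and the summed mitotic level 5.49 times. The mitotic sum did not rise more in every class. The S phase and mitotic values were 2.43 and 2.24 times in type A intercalated, 2.70 and 1.82 in immune, 1.16 and 1.07 in injured tubule and 1.425 and 1.27 in podocyte nuclei. These sums rested on 28 to 92 control UMIs. In the other classes summed, the mitotic value was the larger.

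Injured tubule nuclei, named from Havcr1, Vcam1 and other injury genes, held 116 of the knockout nuclei with mitotic UMIs, next to the proximal tubule among the named classes and fewer than the unnamed nuclei. They made up 0.684%, 0.321% and 0.456% of control nuclei and 10.1%, 9.498% and 5.86% of knockout nuclei. Mitotic UMIs were found in 0 of 112, 0 of 12 and 2 of 23 of them in controls and in 2.95%, 7.31% and 8.14% in knockouts (54, 34 and 28 nuclei), so the shares overlapped because of 2 nuclei in control 3. An unnamed cluster with injury genes (18, 2 and 7 nuclei in controls, 318, 79 and 31 in knockouts) fell below the naming threshold. Of 9 mitotic members tested, Diaph3, a formin, had the smallest p, with a log2 change of 1.97 ± 0.77 (adjusted p = 0.251 in edgeR). Ect2, Kif15, Anln and Cenpe were at 0 in controls 1 and 2. None passed in edgeR, where 0.581% of 6367 genes were called higher, nor with the block or in DESeq2. An unadjusted p under 0.05 was found for 1 of the 9, near the 14.0% of genes that had one. Without control 3, 2 mitotic members passed, where 1.12% of genes were called higher, and without knockout 1, 1 passed, where 1.36% were.

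In the thick ascending limb, the segment that takes up salt through Slc12a1, mitotic UMIs were found in 0.599%, 0.201% and 0% of control nuclei and 1.89%, 2.83% and 3.46% of knockout nuclei. The 81 knockout nuclei so counted had 4938 CPM of Slc12a1 against 9179 in the others, and a median depth of 3709 against 1123 UMIs. All 9 mitotic members tested had an unadjusted p under 0.05, against 6.62% of 10138 genes. None passed edgeR's test, at which 0.0197% of genes were called higher, and 2 passed with DESeq2, where 0.158% were. Top2a was at 1.56, 3.96 and 1.33 CPM in controls and 13.5, 18.1 and 31.7 in knockouts, with a log2 change of 3.32 ± 0.56 (adjusted p = 0.156 in edgeR, 0.0690 with the block). Kif23, Kif20b, Cenpf and Kif15 followed, with log2 changes of 1.59, 1.88, 2.57 and 2.18, and none of these overlapped between groups. In this class, 631 of 10138 genes had every knockout library above every control library. These genes were named for their small p, which favours such a gap. Without both libraries numbered 1, 4 mitotic members passed, where 0.163% of genes were called higher.

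Among the smaller classes, knockout shares lay above control shares in 6. They were 2.26%, 8.89% and 10.3% in pooled mesangial, mural or fibroblast nuclei, against 0%, 1.61% and 0.8% in controls. In endothelial nuclei they were 2.73%, 4.52% and 5.60% against 0.921%, 0% and 2.27%, and in principal cells of the collecting duct 2.33%, 3.33% and 10.2% against 0%, 2.29% and 0%. The distal convoluted tubule, type A intercalated cells and parietal epithelial cells also had non-overlapping shares, on 26, 10 and 10 knockout nuclei. Thinned to 1000 UMIs, the groups overlapped in all 6. In knockouts, the counted type A nuclei held their class's markers at 1143 CPM against 2860 in the others. For the distal convoluted tubule it was 7277 against 13610, and for principal cells 799.9 against 1140. Endothelial nuclei were at 2459 against 3014 and mesangial, mural or fibroblast nuclei at 1295 against 1545. Parietal nuclei went the other way, at 2004 against 1761. The part of RNA from other cells in these counts was not tested.

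Immune, connecting tubule and type B intercalated nuclei overlapped between groups. Immune nuclei had mitotic UMIs in controls too, 9 of 112 nuclei, against 22 of 330 in knockouts. Those 9 nuclei held connecting tubule markers at 7632 CPM, against 824 in the other control immune nuclei, and immune markers at 4229 against 2074. The part of the connecting tubule RNA in their count was not tested. Few members could be tested in these small classes. Pola1 and Ezh2 were the most often tested, with log2 changes of 1.07 and 1.18 in mesangial, mural or fibroblast nuclei, 0.83 and 0.36 in connecting tubule and 0.74 and 0.59 in distal convoluted tubule. In endothelial nuclei they were at 0.95 and 0.81, beside Kif20b at 1.46, Diaph3 at 0.98 and Atad2 at 0.33. In principal cells they were at 0.44 and 0.67, with Diaph3 at 0.98. Ezh2 was the single member tested in type A and type B nuclei, at 0.34 and 0.45. No member passed in edgeR, with the block or in DESeq2 in any of them. Unadjusted edgeR p was under 0.05 for Pola1 in the mesangial, endothelial and connecting tubule classes, Ezh2 in the mesangial class, Kif20b in endothelial nuclei and Cdkn1b in principal cells. It was under 0.05 for 9.37% of all genes in the mesangial class, 4.75% in endothelial, 5.05% in connecting tubule and 6.88% in principal cell nuclei. The shares of all genes called higher were 0.189% in the mesangial class, 0.0337% in principal cells and 0.0% in endothelial, connecting tubule, distal convoluted tubule, type A and type B nuclei. Cdkn1b had a log2 change of -0.79 ± 0.33 in principal cells (adjusted p = 0.665 in edgeR).

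Podocytes, the cell type in which Podocin-Cre is active, held almost none of these nuclei. No control podocyte nucleus of 252 had mitotic UMIs, which allows a share of up to 1.19%, and 1 of 419 knockout podocyte nuclei did. Median depths were 1407.5 and 1210 UMIs, lower than the 1965 and 1522 of the proximal tubule. Proximal tubule markers in knockout podocyte nuclei without mitotic UMIs were at 4895 CPM, the lowest of the named classes. The part of ambient RNA in the count was not tested. No member could be tested in podocyte sums. Intervals and limits cover counting error only.

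**Figure D4:**
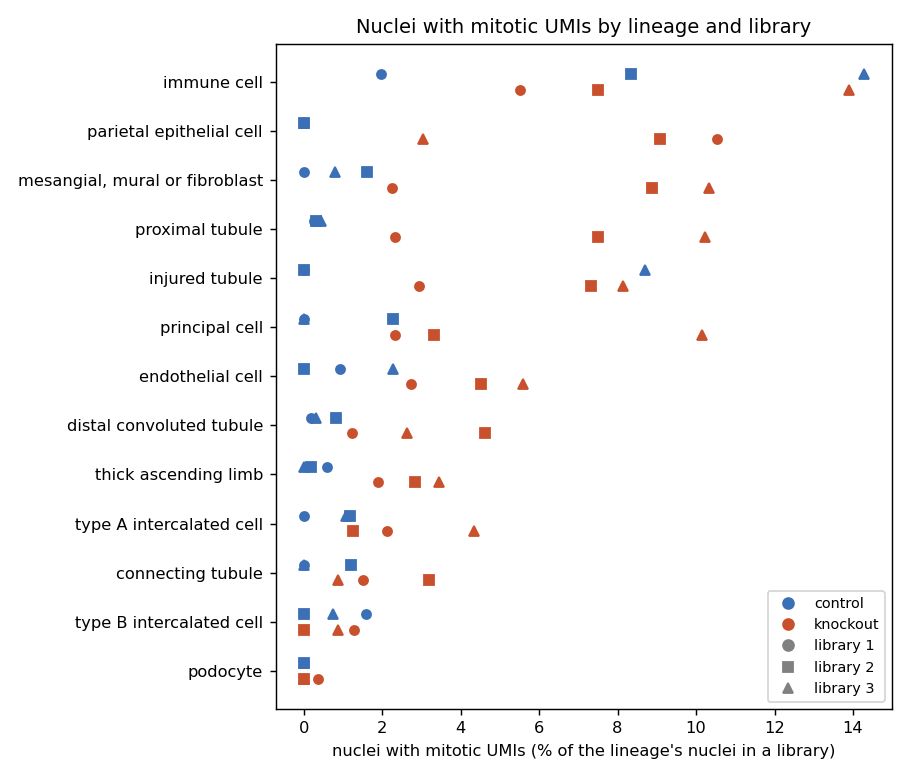
Share of nuclei with mitotic UMIs (x axis, % of the nuclei of a class in a library) for 13 classes; blue is control, red is knockout, and symbols mark libraries 1, 2 and 3. Proximal tubule controls stay at or below 0.447% and knockouts run from 2.33% to 10.2%, podocytes stay near 0, and immune cells overlap.

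Nuclei with mitotic UMIs also carried S phase RNA. The rule that picked them used no S phase gene, so their S phase levels were a separate readout, but both share the nucleus's depth. In knockout proximal tubule, 14 of the 15 S phase members had a higher level in these nuclei than in the other nuclei in all 3 libraries; Cdt1 had no UMI. The median ratio was 4.99. Atad2 was at 168, 286 and 203 CPM in nuclei with mitotic UMIs and 15.95, 42.3 and 28.0 in the others, in knockouts 1, 2 and 3. Pcna was at 6.40, 10.7 and 21.2 against 3.42, 3.21 and 2.32, and Rrm2 at 41.6, 21.5 and 24.2 against 4.40, 5.35 and 3.24. Pcna and Rrm2 thus differed between these nuclei, while over all nuclei their log2 changes were 0.16 and 0.20. Helb was nearly level, at 39.5 ± 4.60 against 32.7 ± 1.58 (SD, n = 3).

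The small MCM counts limit that comparison: Mcm2 rested on 14 UMIs in nuclei with mitotic UMIs and Mcm6 on 49. Thinned to 1000 UMIs, at least 2 UMIs from 2 S phase genes were held by 15.7%, 27.9% and 24.9% of proximal tubule nuclei with mitotic UMIs in knockouts 1, 2 and 3, against 1.12%, 3.15% and 1.67% of the others. In control 1, with 31 such nuclei, members went both ways: Mcm2, Mcm6 and Pcna had 0 UMIs in them, while Atad2 was at 16.8 CPM against 6.06 in the others and Rrm2 at 12.57 against 4.82. These rest on at most 7 UMIs a gene. Cdkn1b was at 41.6 ± 3.59 CPM in nuclei with mitotic UMIs and 24.7 ± 2.56 in the others. Cdkn1a gave 3 UMIs there, too few to compare. Injured tubule nuclei had a median ratio of 4.67, with 8 of 15 S phase members higher in all 3 knockout libraries. With at least 5 mitotic UMIs required, the ratio was 2.91, with 7 of 15 higher. Both are medians of ratios of means over libraries. Taken within knockouts 1, 2 and 3, the median at 3 UMIs was 3.79, 3.37 and 3.15, against 6.35, 4.62 and 5.15 in the proximal tubule. Counts were small in injured tubule, with 5 UMIs for Mcm3, 4 for Mcm5 and 6 for Pcna in nuclei with mitotic UMIs.

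**Figure D5:**
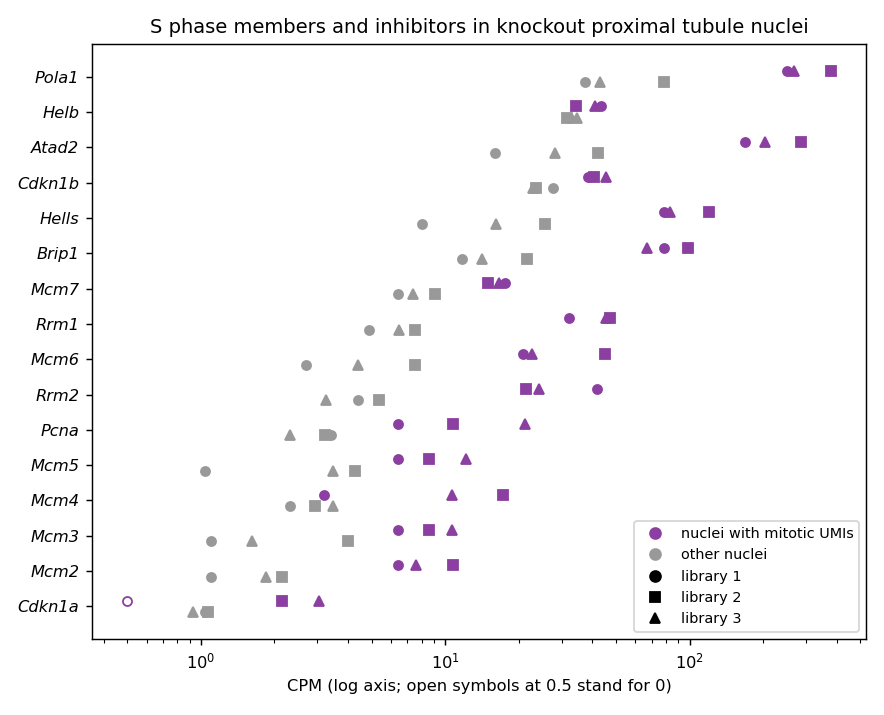
Level of S phase members and inhibitors (x axis, CPM, log axis; open symbols at 0.5 stand for 0) in knockout proximal tubule nuclei with mitotic UMIs (purple) and without (grey), in each of 3 libraries. Atad2 is at 168 to 286 in the first and 15.95 to 42.3 in the second.

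Cdkn1a was sparse in every class, with 28 knockout UMIs each in injured and proximal tubule nuclei. In injured tubule it was at 5.18, 9.85 and 3.20 CPM in knockouts against 8.41, 0 and 0 in controls. In the proximal tubule it was at 1.00, 1.19 and 1.21 against 0.796, 0.398 and 0.426. Neither class had enough UMIs for Cdkn1a to be tested.

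Other genes of the cycle, from lists beyond the 42, had log2 changes near those of their phase. Of 79 other mitotic genes tested over all nuclei, 72 were higher and 62 had an unadjusted p under 0.05, against 9.84% of all genes. None passed edgeR's test, 40 rose with the block, where 1.14% of all genes were called higher, and 49 passed with DESeq2, where 2.03% were. Their median log2 change was 1.94. The smallest p were those of Cdc20, which activates the anaphase complex, at 0.528 ± 0.145 against 5.79 ± 2.58 CPM (control against knockout, SD, n = 3), and Hjurp, which loads the centromere histone, at 4.08 ± 0.51 against 12.5 ± 1.77. Of 68 other S phase genes, 61 were higher with a median of 0.79; none passed edgeR's test, 35 had an unadjusted p under 0.05, 11 rose with the block and 16 passed with DESeq2, against the same shares. Esco2, which ties sister chromatids together, had the smallest p of these, at 0.510 ± 0.278 against 5.83 ± 1.82.

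Of 23 G1 and checkpoint genes tested, 19 were higher, with a median log2 change of 0.26. None passed edgeR's test, 6 had an unadjusted p under 0.05, 1 rose with the block (Cdk6, the kinase that works with D cyclins) and 3 passed with DESeq2, again against 9.84%, 1.14% and 2.03% of all genes. Cdk6 was at 118 ± 6.65 CPM in controls and 206 ± 23.4 in knockouts, and E2f1, the S phase factor, at 1.44 ± 0.39 and 4.66 ± 0.53. Of 22 targets of p53, 12 were higher and 10 lower, with a median of 0.02. None of them passed in edgeR, with the block or in DESeq2, and 1 had an unadjusted p under 0.05 in edgeR, a share under the 9.84% of all genes. Mdm2, which degrades p53, was at 95.9 ± 13.2 and 125.7 ± 12.3, and Sesn2 at 31.96 ± 19.1 and 17.5 ± 2.21.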

How the data were processed

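Per the file headers, Cell Ranger 3.1.0 wrote the authors' matrices. The submitters' processing notes name mm10 and, without a role, Seurat. The values are raw UMI counts per gene and barcode, deposited without normalization. The members and lists were chosen with earlier results of these data known.

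Filtering required 300 or more genes and no more than 5% mitochondrial UMIs per barcode. Doublets were scored with Scrublet (scanpy 1.11.5). Its own threshold marked 0 to 8 barcodes a library, so the highest scores were removed, at 0.8% per 1000 barcodes. Leiden clustering (igraph 0.11.9; 3000 variable genes) left out all 241 listed cell cycle genes. Nuclei with at most 1 core mitotic UMI were clustered, giving 65 clusters, and 2588 others took the class of their 15 nearest neighbours. Clusters were named from fixed markers, and naming thresholds were set after clusters were seen. The proximal tubule, the largest class, had a rule of its own. Its clusters scored low for every other class, and its markers had to be raised against the nuclei outside these clusters. Against all other nuclei, which include other proximal tubule clusters, the mean log2 ratios of its markers ran from -1.183 to 0.497. Cell types were rebuilt here, so names may differ from the study's.

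Counts were summed per library and class with at least 10 nuclei in every library and tested with edgeR 4.0.16 (quasi-likelihood, TMM, filterByExpr), Benjamini-Hochberg adjusted at 0.05 over all genes. DESeq2 1.42.0, a replicate block and left-out libraries were alternatives. On simulated counts over all nuclei (16042 genes), edgeR called 44 of 50 genes raised by a log2 of 2 and 12 of 49 raised by 1. The simulated libraries shared a single mean profile and a fixed dispersion. They thus lacked the differences between libraries described above, and these counts do not give the power of the test in the real data. Same-numbered libraries deviated together over all nuclei (r = 0.715, 0.397 and 0.458); crossed pairs of libraries 2 and 3 did so too (r = 0.422 and 0.442). The block used the replicate numbers of the library titles. The labels do not say that same-numbered libraries were paired, and by this correlation only the libraries numbered 1 stood apart as a pair. Named genes were the 8 fixed ones, the 5 smallest p of each phase list and of each class, and up to 2 of each other list. Some genes that this rule or a marker list names are not reported here. Gene lengths came from GENCODE M21.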

Additional observations from a re-analysis of the deposited data

How the results depend on the processing

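Alternatives changed how many genes passed more than any direction. Over all nuclei, mitotic members called higher went from 1 to 20 with the replicate block, 24 with DESeq2, 8 with no filter, 24 without both libraries numbered 1 and 0 with all deposited barcodes; leaving out one library gave 0 to 6. S phase members went from 0 to 3 with the block, 4 with DESeq2 and 6 without both libraries 1, and inhibitors from 0 to 1 in the last. In the proximal tubule, mitotic members went from 0 to 15 (block), 20 (DESeq2), 10 (no filter), 19 (without both libraries 1) and 0 to 11 (one library out), and S phase members from 0 to 2, 4, 1, 2 and 0 to 2. Thick ascending limb mitotic members went from 0 to 2 with DESeq2, 11 with no filter and 4 without both libraries 1. Among all genes, no filter called 60 of 26882 higher over all nuclei and 42 of 25384 in the proximal tubule. In the thick ascending limb it called 98 of 22691. Without both libraries 1, 89 of 12776 genes were called higher in the proximal tubule. Injured tubule mitotic members were 0 to 2 with one library out. Other classes together had 8 with no filter and 1 with all nuclei clustered together, an alternative chosen after seeing the data, as was removing shared barcodes. These are sums over classes whose shares of all genes called higher differed. With no filter, 75 of 14521 genes were called higher in parietal epithelial nuclei and 4 of 17253 in immune nuclei. Other S phase genes went from 0 to 11 (block), 16 (DESeq2), 2 (no filter), 19 (without both libraries 1) and 0 to 1 (one library out). Other mitotic genes went to 40, 49, 6, 50 and 0 to 3, and G1 and checkpoint genes to 1 (block), 3 (DESeq2) and 2 (without both libraries 1). The cause was not tested. The injured tubule share difference, 3.23 points, was 1.79 to 6.13 with one library out (6.13 without control 3), and its median S phase ratio fell from 4.67 to 2.91 at 5 UMIs. Signs turned for genes near 0 or with few UMIs. With one library out, log2 changes over all nuclei ran from -0.029 to 0.419 for Pcna and from -0.093 to 0.031 for Helb. They ran from -0.235 to 0.109 for Helb in distal convoluted tubule, from -0.333 to 1.546 for Atad2 in endothelial cells and from -0.063 to 0.687 for Pola1 in principal cells. In injured tubule they ran from -0.086 to 8.053 for Ect2, -2.608 to 7.344 for Kif15, -0.717 to 7.826 for Anln and -0.737 to 7.409 for Cenpe, the highest without control 3. That library held all their control UMIs, so these highest values are fitted against controls at 0 and are no bounds. Without both libraries numbered 1, Helb was at -0.115 in distal convoluted tubule (-0.021 with DESeq2, -0.028 with no filter), Atad2 at -0.022 in endothelial cells, and Anln at -0.509 and Cenpe at -0.295 in injured tubule.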
